A study of Mus musculus with 12 samples.

Results

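Lamp5 interneurons of the mouse cortex at postnatal day 21 (P21) are described here from single-nucleus RNA sequencing (snRNAseq) of 12 animals. Of 71914 kept barcodes, 216 were taken as Lamp5 members by their raw UMIs, where a UMI is a molecular tag that counts 1 captured transcript. A kept barcode had at most 12000 UMIs, of which at most 1% were mitochondrial. A member held at least 2 Lamp5 UMIs, at least 2 UMIs of Gad1 and Gad2 together, no Vip or Pvalb UMI, and at most 1 UMI each of Sst, Slc17a7 and Rgs9. Because measured values of these 8 genes chose the members, their levels below are descriptions and none was tested.

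The 6 WT and 6 Het animals comprised 3 males and 3 females of each genotype, and Het animals carried the MYT1L S710fsX frameshift on 1 allele. All 12 animals shared the injection of the Calling Cards AAV9 constructs hyPB and H2b-tdT-SRT into the ventricles as newborns, so the WT animals were not untreated. The methods draw the samples at random from banked tissue, grouped by genotype, of 4 litters, and state that samples were generally littermates. The labels do not name the litter of each animal. MYT1L is a zinc finger transcription factor of neurons, and the design asks what losing 1 functional copy does to each cortical cell type.

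Cortical Lamp5 interneurons are inhibitory neurons that release GABA, and many of them are neurogliaform cells, which are known for slow, diffuse inhibition that reaches GABA-A and GABA-B receptors around their dense axons. Those in layer 1 often carry Ndnf and Reln, and many neurogliaform cells carry Npy, the neuropeptide Y gene. Most arise in the caudal ganglionic eminence, the embryonic source that they share with Vip interneurons. A smaller Lamp5 type carries Lhx6, a transcription factor of the medial ganglionic eminence, where Sst and Pvalb interneurons arise.

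The label was checked on markers that the rule did not use. Reln, which encodes a secreted glycoprotein, had a count above 0 in 152 of 216 members (70.4%, exact 95% interval 63.8% to 76.4%), and of these 151 held at least 1 whole UMI, since a UMI that fits several genes was deposited in fractions. In excitatory nuclei, which hold at least 2 Slc17a7 UMIs and none of Gad1 or Gad2, 11.5% had one. Their median depth was 5640 to 7569.5 UMIs per animal, against 4136 to 7762 in the members. Among the other GABAergic nuclei, which met the rule with no Lamp5 UMI, 37.2% had one, and among nuclei with at least 2 Vip UMIs 21.5%. Median depth per animal was 3727.5 to 5428 UMIs in Vip nuclei, with a middle value of 4577 against 5812 in members. The part of depth in these shares was not tested. The interval for the Reln share covers counting error only. Over animals the share of members with at least 1 whole Reln UMI ran from 30.8% to 85.7%. Cplx3, which some Lamp5 cells use, was at 3 UMIs over all members.

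Most members lay close to the threshold of the rule. Exactly 155 members lay just inside the threshold with 2 Lamp5 UMIs and 61 held 3 or more. Just outside it, 499 nuclei met every other condition with 1 Lamp5 UMI, and 6702 met them with none. Another 36 barcodes would have been members but for the limit of 12000 UMIs. Of 375 GABAergic nuclei with at least 2 Ndnf UMIs, 55 were members, 83 held 1 Lamp5 UMI and 236 held none. The nuclei with 1 Lamp5 UMI resembled the members: mean Reln was 1218 CPM (UMIs on a counts-per-million scale) against 1334, Sv2c was 279.9 against 319.8 and Kit was 329.1 against 409.5. They also held more of genes that other GABAergic classes carry, such as Sox6 at 103.2 CPM against 32.7. A Lamp5 UMI alone is a weak sign, since 12.6% of excitatory nuclei held one.

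Totals per animal ran from 23429386 to 59958572 UMIs over 4059 to 8798 deposited barcodes, and no barcode sequence was shared between animals. Member nuclei held 1757 to 11756 UMIs each, with a median of 5803.5 UMIs and 2402.5 genes. Summed over its members, an animal that entered the tests below gave 76202 to 210173 UMIs to the tested counts, a shallow profile. WT male 1 had only 7 members and fell below the 10 required for a fit, so the fitted groups were 5 WT and 6 Het animals. A score of the doublet caller Scrublet within the highest 5% of its animal was found for 19 members (8.80%), and 99 members met the study's own limits on nuclei, which end at 6000 UMIs. The sex genes followed the labels: Xist was 0 in the members of all males and at 256.0 to 439.6 CPM in those of females.

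Lamp5 members were rare in every animal. Among WT males the animals gave 7, 17 and 35 members, WT females 18, 14 and 23, Het males 12, 19 and 20, and Het females 20, 13 and 18. As a share of kept nuclei they made up 0.334% ± 0.0998 (SD, n = 6) in WT and 0.261% ± 0.0476 (n = 6) in Het animals. WT values ran from 0.184% to 0.442% and Het values from 0.211% to 0.347%, so the groups overlapped, and 1 of 6 Het animals was above the WT median. The difference of −0.0727 percentage points gave p = 0.134 in the exact two-sided permutation test over 924 relabellings. Without WT male 1, the animal with the fewest members, it was −0.103 points with an exact p of 0.0281. When members had to hold 3 Lamp5 UMIs the difference turned to 0.0162 points, and when every nucleus was thinned to 1500 UMIs it turned to 0.00270 points, so no direction held. With 1 Lamp5 UMI as the minimum, an alternative added after seeing the data, the shares were 1.06% and 0.931% (exact permutation p = 0.108), and none of 6 Het animals was above the WT median.

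**Figure D1:**
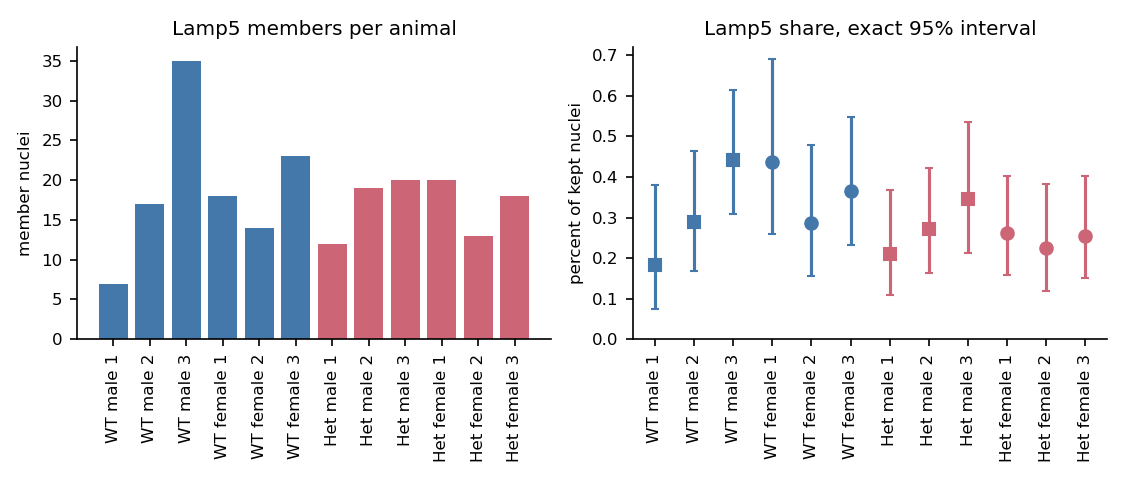
Number of Lamp5 member nuclei (left panel) and their percent of kept nuclei (right panel) in each of 12 animals, blue for WT and red for Het, squares for males and circles for females. Bars on the right are exact 95% binomial intervals, which cover counting error only; the intervals of WT and Het animals overlap widely, and WT male 1 has the fewest members at 7.

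Against Vip interneurons, the nearest other class, Lamp5 nuclei were also counted as a ratio. The Vip rule was the same with at least 2 Vip UMIs and at most 1 Lamp5 UMI, and it took 442 nuclei. The log2 ratio of Lamp5 to Vip nuclei was −0.791 ± 0.477 in WT and −1.26 ± 0.409 in Het animals (SD, n = 6 each). The difference of −0.466 gave an exact permutation p of 0.106, and 1 Het animal exceeded the WT median. WT male 2 stood low at −1.72, and without that animal the difference was −0.651 with an exact p of 0.0152. With 3 Lamp5 UMIs required it turned to 0.0202.

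Compared with Vip nuclei of the same animals, 227 of 3397 genes measured at 50 CPM or more in either class were higher in members in all 12 animals, and 209 were lower in all 12. These are descriptions of classes cut by marker genes, with no test. The secreted neurotrophic factor gene Ndnf stood at 196.3 CPM in members (SD 95.4 over 12 animals) against 1.32 in Vip nuclei. Nxph1, a neurexophilin that binds neurexins, was at 3452 CPM against 197.0, and Sv2c, a synaptic vesicle protein, at 319.8 against 18.2. Further genes at the top of this order were the netrin receptor Unc5d at 1514 CPM against 130.9, the HMG-box gene Tox3 at 411.7 against 27.6, and the heparan sulfate enzyme Ndst3 at 395.8 against 28.6. Mpped1, Arhgap6 and Crispld1 completed the list, with mean log2 ratios of 3.82, 3.78 and 3.76 after adding 5 CPM.

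Lower in members than in Vip nuclei, besides Vip itself, were Plpp4, Wnt5b, Cp, Synpr, Mybpc1, Trpc6, Sdk1, Pde1c and Lama3. Synpr, which encodes the vesicle protein synaptoporin, was at 122.5 CPM in members and 1939 CPM in Vip nuclei, and Sdk1, an adhesion molecule of synaptic layers, was at 126.2 against 1662. The Wnt ligand Wnt5b was at 1.09 CPM against 124.3. Htr3a, the serotonin receptor subunit by which many caudal interneurons are known, had no UMI in any member, against 36.1 CPM in Vip nuclei. Cnr1, the cannabinoid receptor, was at 121.0 against 407.2 CPM and was lower in members in all 12 animals.

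Genes of the caudal lineage, mostly transcription factors, were found in members. Adarb2, an RNA-editing family gene that marks this lineage, was at 6569 CPM in members, below the 17055 CPM of Vip nuclei in all 12 animals and above the 83.7 CPM of excitatory nuclei in all 12. Prox1, a homeobox gene of caudal interneurons, was at 103.3 CPM in members, 268.8 in Vip nuclei and 33.2 in the other GABAergic nuclei. Npas3 was at 684.8 CPM against 2913 in Vip nuclei and varied from 34.7 to 1675 CPM over animals. Of the nuclear factor I genes, Nfib was at 1191 CPM in members, above the 412.5 CPM of Vip nuclei in 12 of 12 animals, and Nfix was at 124.0 against 79.9. Sox6, needed for medial interneurons to mature, was at 32.7 CPM in members and 724.0 in the other GABAergic nuclei, and Satb1, of the same lineage, at 16.2 against 125.1. Both were lower in members in 12 of 12 animals.

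Against those other GABAergic nuclei, 159 of 3409 genes were higher in members in all 12 animals and 203 were lower in all 12. Crispld1 led with 223.9 CPM against 27.3, followed by the phosphodiesterase Pde11a at 698.7 against 102.5 and the growth factor receptor Egfr at 593.8 against 90.9. Kit, the stem cell factor receptor, was at 409.5 against 68.1 CPM. Hapln1, a linker of the extracellular matrix, was at 125.1 against 22.8, and Fgf13, an intracellular partner of sodium channels, at 3579.8 against 769.7. On the lower side, after Sox6, stood Il1rapl2, 6330411D24Rik, Nek7, Kctd8, Moxd1, 9630002D21Rik, Cacna2d2, Thsd7a and Tmem132c. Egfr was not particular to members in this order, since Vip nuclei were at 542.9 CPM and members were higher in 8 of 12 animals.

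**Figure D2:**
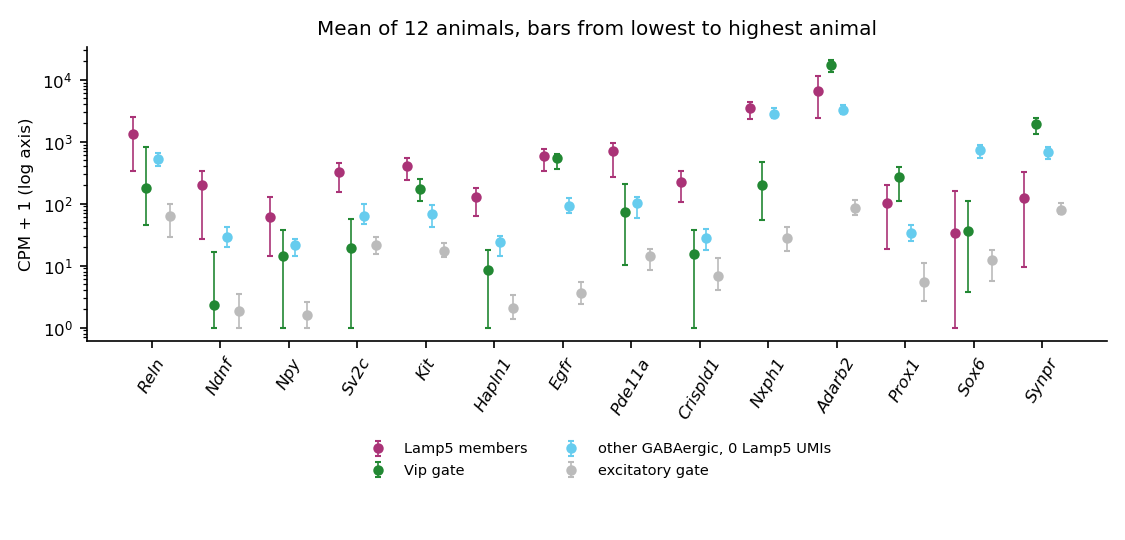
CPM plus 1, on a log axis, of 14 genes summed over the nuclei of each animal in Lamp5 members, Vip nuclei, other GABAergic nuclei with no Lamp5 UMI and excitatory nuclei. Points are means of 12 animals and bars run from the lowest to the highest animal; Ndnf, Sv2c and Hapln1 are highest in members, Adarb2, Prox1 and Synpr in Vip nuclei, and Sox6 in the other GABAergic nuclei.

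Some receptor and channel genes are given as examples chosen after their values were seen. Gabra5, a GABA-A receptor subunit found outside synapses, was at 124.8 CPM against 19.1 in Vip nuclei in 12 of 12 animals, and Gabrd, another such subunit, at 21.3 against 4.82 in 10 of 12. The kainate receptor subunit gene Grik1 was at 2277 CPM against 723.1 in Vip nuclei in 12 of 12 animals. Adra1a, a noradrenaline receptor, was at 569.2 CPM against 171.2 in Vip and 183.5 in other GABAergic nuclei, higher in 12 of 12 animals in each comparison. Its relative Adra1b was lower in members than in Vip nuclei in all 12 animals, at 77.1 against 259.8 CPM. Kcnc2, a fast potassium channel subunit, was at 423.0 CPM in members and 2134 in other GABAergic nuclei, and lower in 12 of 12.

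Markers of other cell types were present at varied levels. Slc17a7, the vesicular glutamate transporter and a rule gene, was at 8.28 CPM against 337.1 in excitatory nuclei. The summed level of the 11 excitatory markers outside the rule was 121.7 to 806.5 CPM in WT and 191.5 to 376.3 in Het members, with none of the 11 at 0 throughout, and 701.5 to 875.3 CPM in excitatory nuclei. For 6 astrocyte markers the sum was 154.9 to 217.1 CPM in WT and 78.5 to 180.9 in Het members (exact permutation p = 0.0823), with Aqp4 at 0. For 7 oligodendrocyte markers it was at most 176.0 CPM, with Mog, Mag and Mobp at 0. The 6 Sncg-class markers summed to 310.2 to 756.1 CPM in WT and 367.9 to 820.8 in Het members, against 283.9 to 1046 in Vip nuclei. Sst-class markers outside the rule reached 260.5 CPM and Pvalb-class markers 221.3 CPM, against up to 269.0 and 208.8 in Vip nuclei. Markers of the Vip class outside the rule summed to 0 to 16.0 CPM in WT (median 2.37) and 0 to 46.6 CPM in Het members (median 20.4, exact permutation p = 0.0996), against 48.6 to 197.2 CPM in Vip nuclei. Sncg and Krt73 of the Sncg class, Crh and Crispld2 of the Vip class, Crhbp and Tac1 of the Sst class, and Pthlh of the Pvalb class were at 0. The 10 striatal markers outside the rule summed to 226.4 to 1386 CPM in WT and 135.8 to 730.5 in Het members, against 54.4 to 869.2 in Vip and 357.0 to 533.6 in excitatory nuclei. Of them Ppp1r1b and Adora2a were at 0, whereas Meis2, which caudal interneurons and striatal neurons can both use, had a UMI in 39 of 216 members.

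Members were not alike. Ndnf was found in 80 of 216 (37.0%, exact 95% interval 30.6% to 43.9%) and Npy in 55 (25.5%, 19.8% to 31.8%), against 0.5% and 0.4% of excitatory nuclei. These intervals cover counting error only. Over animals the shares ran from 17.6% to 60% for Ndnf and from 7.69% to 44.4% for Npy. Both genes were found in 22 members, Ndnf only in 58, Npy only in 33 and neither in 103. A missing UMI does not show that a nucleus lacked the transcript at these depths. Median depth was nearly the same on both sides of each split, at 5475 UMIs with and 5907.5 without Ndnf, and 5895 with and 5714 without Npy. Of the members with Ndnf, 78 of 80 also had at least 1 Reln UMI, against 73 of 136 without Ndnf.

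Members with an Ndnf UMI had 18 genes higher and 26 lower in all 12 animals, of 3444 genes, with Ndnf itself among the 18. Reln was at 2519.7 CPM with Ndnf and 628.0 without, and Grik1 at 4059.7 against 1317. Parm1 was at 439.6 CPM against 147.2, and the adhesion and guidance genes Cntn5 and Robo2 were at 5991 against 2591 and 2536 against 1259. On the other side, Ano3, a member of the anoctamin family, was at 6.07 CPM with Ndnf and 153.0 without. The ephrin receptor gene Ephb1 was at 14.2 against 120.9, the metalloprotease gene Adamts3 at 5.96 against 87.3 and the cadherin gene Cdh12 at 176.6 against 1119. Kit was higher with Ndnf in 11 of 12 animals, at 651.2 against 285.1 CPM, whereas Meis2 was at 36.4 with and 335.6 without.

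The Npy split gave 3 genes higher and 20 lower in all 12 animals, of 3514 genes, Npy among the 3. Nyap2, an adaptor of phosphoinositide 3-kinase in neurons, was at 2656 CPM with Npy and 1625 without. Lower with Npy were the phosphodiesterase Pde1a, at 8.19 against 317.3 CPM, the metabotropic glutamate receptors Grm8, at 20.2 against 326.8, and Grm7, at 218.9 against 938.3, and the neurexin-family gene Cntnap5a, at 34.5 against 340.7. The others of the 10 lowest were Sorcs1, Car10, Agap2, Lrfn5, Ralyl and Dcx, with Dcx, a microtubule gene of young neurons, at 38.1 against 109.7 CPM. Each side of a split summed only a few nuclei in some animals, from 1 with Npy and from 2 with Ndnf. A gene of low level can have no UMI on such a small side and then counts as lower there. The part this plays in the 20 lower genes was not tested.

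**Figure D3:**
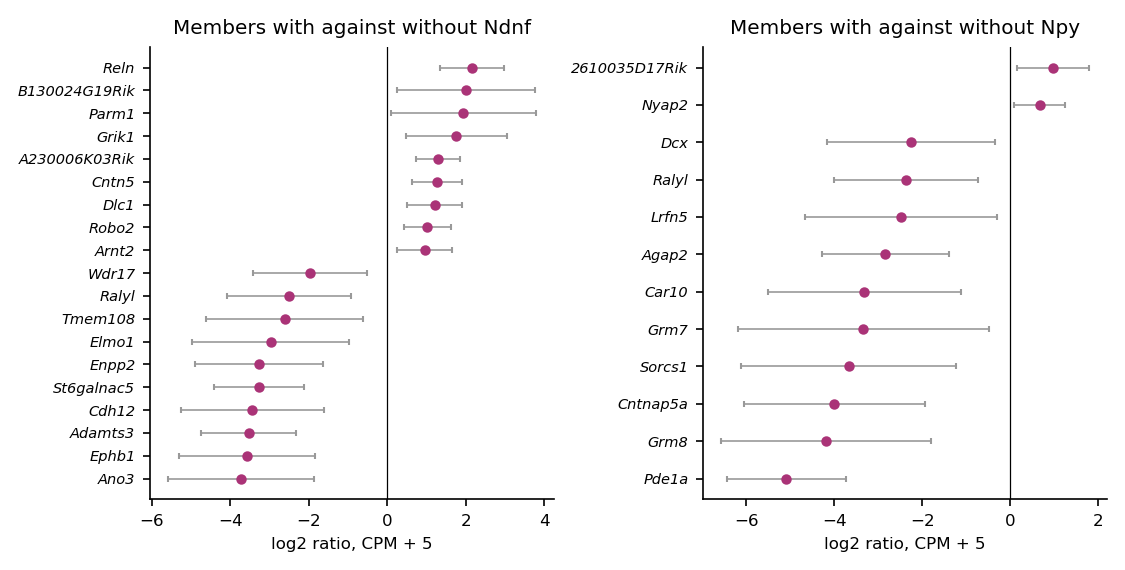
Mean log2 ratio of CPM (5 added) between members with and without an Ndnf UMI (left) and with and without an Npy UMI (right), for up to 10 genes per direction that moved the same way in all 12 animals, the split gene left out. Bars are the SD over 12 animals; Reln leads with Ndnf at 2.16, and Pde1a is lowest with Npy at −5.09.

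How often members held these genes was compared between genotypes after seeing the data. An Npy UMI was found in 31.8% of WT members on average (animals 17.6% to 44.4%) and in 18.03% of Het members (7.69% to 31.6%), and 5 of 6 Het animals were below the WT median. The exact permutation p was 0.0325, and 0.0974 when adjusted over the 3 genes tried. After thinning each member to 1500 UMIs the expected shares were 10.9% and 6.94% with an exact p of 0.0758. Npy levels overlapped, at 41.4 to 105.5 CPM in WT and 13.1 to 129.0 in Het animals. Reln shares were 75.7% and 61.1% (exact permutation p = 0.0823, adjusted 0.123) and Ndnf shares 33.7% and 38.7% (exact permutation p = 0.494, adjusted 0.494).

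An Lhx6 UMI was found in 10 of 216 members (4.63%, exact 95% interval 2.24% to 8.35%), 2 of them in WT and 8 in Het animals, and 6 animals had none. Lhx6 shares averaged 1.20% ± 1.92 in WT and 7.40% ± 7.51 in Het animals (SD, n = 6 each), and 4 of 6 Het animals were above the WT median. That difference of 6.20 points had an exact permutation p of 0.0736. It rested on few nuclei, with 4 of the 8 in Het female 1, and without that animal it was 3.68 points (exact permutation p = 0.119). Without Het male 3 or without Het female 2, which had none, it was 7.68 points (exact permutation p = 0.0195). Thinned to 1500 UMIs it was 3.42 points. Pooled over animals, the 10 nuclei gave 56876 UMIs, in which Hapln1 was at 382.4 CPM (exact Poisson 95% interval 238.9 to 580.3) against 115.7 in the other members and Nos1, the neuronal nitric oxide synthase, at 334.1 (201.1 to 521.7) against 52.6. Adarb2 was at 1897 CPM against 6915. Ndnf and Kit had no UMI in these 10 nuclei, where 3 UMIs would be 52.7 CPM, against 198.6 and 443.6 CPM in the rest. These intervals cover counting error only.

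Before genotypes are compared, Myt1l itself is given. It was at 639.6 ± 92.0 CPM in WT and 780.7 ± 105.5 CPM in Het members (SD, n = 5 and 6), a log2 fold change of 0.27 with a standard error (SE) of 0.16 and an adjusted p of 0.775. WT animals ran from 513.5 to 746.4 CPM and Het animals from 606.6 to 916.4, and 5 Het animals exceeded the WT median. A count of UMIs does not tell a frameshift transcript from the WT one, and the level of the mutant transcript alone was not measured. These values therefore do not check the genotype. Of its relatives, Myt1 was at 31.3 and St18 at 19.5 CPM in members, and neither passed the filter on low counts.

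No gene was called between Het and WT in Lamp5 members. A differentially expressed gene (DEG) had to have a Benjamini-Hochberg adjusted p under 0.05 and a log2 fold change beyond 0.2 in the quasi-likelihood test of edgeR on counts summed per animal. Of 2087 genes tested, 0 were called (0% called), and 141 (6.76%) had an unadjusted p under 0.05, of which 80 were higher in Het (3.83%) and 61 lower (2.92%). DESeq2 also called 0, with 102 at an unadjusted p under 0.05. The fitted groups did not overlap for 14 genes (0.671%). In simulated data of the same size, edgeR recovered 79.5% of genes changed by 1 on the log2 scale and all of those changed by 2. It made 8 false calls among 1951 genes tested, of which 165 had been changed. The simulated counts followed the dispersion trend, without the spread of single genes around it. Recovery in the members can therefore be lower and was not measured, and a change of 1 on the log2 scale could be missed at this depth.

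The 5 genes with the smallest p on the higher side were Slc44a5, Ryr3, Epb41l4b, Tiam1 and Galntl6, and none passed the test. Slc44a5, of the choline transporter-like family, lies on chromosome 3 (153973436 to 154271722, plus strand, mm10). It was at 111.5, 156.7, 139.2, 182.6 and 72.0 CPM in the 5 WT animals and at 376.1, 307.8, 256.7, 390.7, 130.9 and 311.5 CPM in the 6 Het animals. Only Het female 2, at 130.9 CPM, lay within the WT range. Its log2 fold change was 1.15 (SE 0.25, edgeR adjusted p = 0.192), and leaving out Het female 2 brought it past the threshold at 1.29 with an adjusted p of 0.00869. Over the alternatives its adjusted p ran from 0.00869 to 0.911. The annotated genes Gm3076, Gm42540 and Gm42541 overlap it, and the counting of overlapping genes was not given in the sources used here.

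Ryr3, an intracellular calcium release channel on chromosome 2 (112631355 to 113217096, minus strand), was at 77.8, 90.2, 105.5, 88.5 and 186.7 CPM in WT animals and 152.4 to 523.7 in Het animals. WT female 3 was the only fitted WT animal to reach the Het range, the unfitted WT male 1 was at 268.8 CPM, and without WT female 3 the log2 fold change went from 1.29 to 1.57 with an adjusted p of 0.0293. Epb41l4b, a band 4.1 family gene that ties membranes to the cytoskeleton, was at 79.1 to 114.0 CPM in WT and 117.3 to 343.5 CPM in Het animals, so the fitted groups did not overlap, whereas the unfitted WT male 1 was at 124.1 CPM, within the Het range. Its log2 fold change was 1.06 (SE 0.27, adjusted p = 0.202). Tiam1, an activator of the small GTPase Rac1, was at 174.3 ± 50.03 CPM in WT and 323.3 ± 87.2 CPM in the Het group. The unfitted WT male 1 was at 392.9 CPM for Tiam1, above 4 of 6 Het animals, and with it the log2 fold change went from 0.88 to 0.70 with an adjusted p of 0.594. Galntl6, of a family that adds sugars to proteins, was at 3448 ± 860 and 5833 ± 1482 CPM. In Vip nuclei the mean level was 1211 CPM for Slc44a5, 401.2 for Ryr3, 456.7 for Tiam1 and 7702 for Galntl6, above the members in 11 or 12 of 12 animals for each. Epb41l4b lay the other way, at 72.4 CPM in Vip nuclei, with members higher in 10 of 12 animals. The median of the Vip-class marker sum was also higher in Het members, and its part in these differences was not tested.

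Among the 5 on the lower side were Pdzrn3, Rgs7, Nyap2 and Kcnip4, again without a call. The ubiquitin ligase gene Pdzrn3, on chromosome 6 (101149609 to 101377897, minus strand), was at 240.2, 223.2, 259.4, 235.2 and 96.0 CPM in WT and at 58.3 to 138.9 CPM in Het animals. WT female 3 again lay within the other group's range, as did the unfitted WT male 1 at 82.7 CPM. Without WT female 3 the log2 fold change of Pdzrn3 went from −1.10 to −1.28, and its adjusted p from 0.2004 to 0.0211. Rgs7, a brake on G-protein signals, was at 1399 to 2505 CPM in WT and 913.8 to 1352 in Het animals, with no overlap among fitted animals and WT male 1 within the Het range at 1217 CPM, at a log2 fold change of −0.61 (SE 0.16, adjusted p = 0.206). Kcnip4, a partner of Kv4 potassium channels, was at 7689 ± 1005 and 5344 ± 1322 CPM. Nyap2 was at 1884 to 2654 CPM in WT and 1297 to 1879.8 in Het animals, also with no overlap among fitted animals. The unfitted WT male 1 was below every Het animal for Nyap2 at 951.3 CPM, and under the study's limits on nuclei the log2 fold change went from −0.52 to −0.15. For each of these 4 genes all 6 Het animals lay under the WT median. Within members, Nyap2 was higher with than without an Npy UMI in 12 of 12 animals. Kcnip4 was higher with Npy in 8, Rgs7 in 7 and Pdzrn3 in 4. Of the 5 genes on the higher side, Ryr3 was higher with Npy in 1 of 12, Slc44a5 and Galntl6 in 2, Tiam1 in 4 and Epb41l4b in 7. The part of the lower Npy share of Het members in these differences was not tested.

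**Figure D4:**
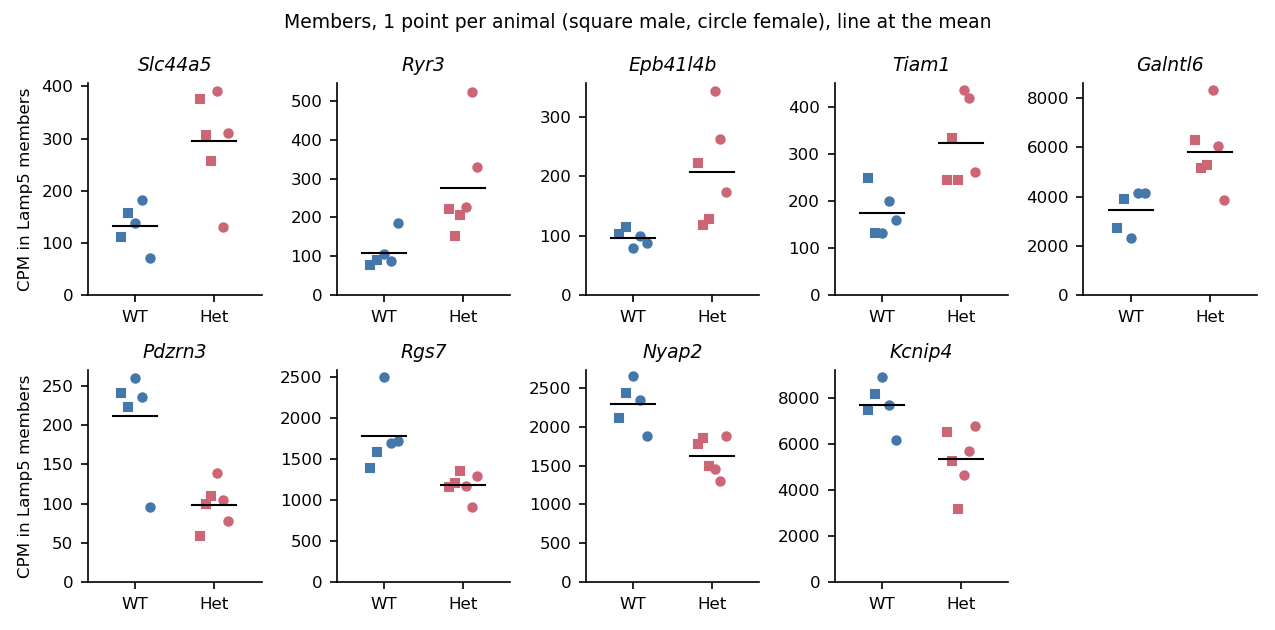
CPM in Lamp5 members of the 11 fitted animals for the 5 higher genes with the smallest p and 4 of the 5 lower ones between Het (red) and WT (blue). Each point is 1 animal, square for male and circle for female, and the line is the mean; no gene passed the test, and the fitted groups do not overlap for Epb41l4b, Rgs7 and Nyap2.

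The 499 nuclei with 1 Lamp5 UMI, which the rule did not take, allow the same comparison in other nuclei of the same animals. None of 3216 genes was called there (0% called, edgeR, with 169 at an unadjusted p under 0.05). Kcnip4 had a log2 fold change of −0.50 in them and Rgs7 −0.35, against −0.55 and −0.61 in members. Pdzrn3 was at −0.46 and Nyap2 at −0.15, against −1.10 and −0.52. Slc44a5 was at −0.03, against 1.15 in members, Ryr3 at 0.27, against 1.29, and Epb41l4b at 0.06, against 1.06. Tiam1 was at 0.16 and Galntl6 at 0.03, against 0.88 and 0.73. Neither set of values was called. Leaving out members with a Meis2 UMI, a choice added after seeing the data, left 5 WT and 5 Het animals and also gave 0 calls. Slc44a5 was then at 1.09 and Grik1 at 0.71, each with an edgeR adjusted p of 0.0857, Ryr3 at 0.97 and Epb41l4b at 0.48. Het female 2, the lowest Het animal for Slc44a5 and the highest for Ryr3, fell below 10 members there. These values therefore mix the loss of that animal with the loss of Meis2 nuclei, and the part of each was not tested.

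Among the gene lists, marker genes of the Lamp5 type gave 0 calls of 6 tested, with 1 at an unadjusted p under 0.05 and a median log2 fold change of 0.029, beside 0.0052 over all 2087 genes. Sv2c was at 386.8 ± 56.1 CPM in the WT group and 269.0 ± 66.1 in the Het group (log2 fold change −0.53, adjusted p = 0.555), and all 6 Het animals were below the WT median. Ndnf had a log2 fold change of 0.57, Reln 0.27, Hapln1 0.21, Kit −0.15 and Adarb2 −0.20, with adjusted p-values from 0.884 to 0.976. For Reln the Het animals alone spanned 330.6 to 2544 CPM. Of 9 tested genes of the caudal lineage, transcription factors besides Adarb2, 7 were lower in Het, beside 1029 of all 2087 genes, 1 had an unadjusted p under 0.05 and none was called. Nfia had the smallest p among them, at 225.0 ± 58.7 against 150.9 ± 24.9 CPM, and Nfix followed at 149.7 ± 28.7 against 109.5 ± 26.3. Of the medial lineage 3 factors were tested, with log2 fold changes from −0.21 to 0.26.

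Receptor and channel lists gave no call either. Of 17 glutamate receptor genes, 9 were higher and 8 lower in Het, and the 3 with an unadjusted p under 0.05 were all higher, where 6.76% of all genes had such a p. They were Grik1 at a log2 fold change of 0.55, Grid1, which encodes a delta receptor of synapses, at 0.52, and the AMPA receptor subunit gene Gria1 at 0.59. Grik1 was at 1849 ± 382 CPM in the WT group and 2737 ± 502 CPM in the Het group, with an adjusted p of 0.339. Among 14 GABA receptor genes, Gabra5 had the smallest p, at 160.6 ± 59.99 against 102.0 ± 25.3 CPM, and the median log2 fold change was 0.05. Of 23 potassium channel genes, 2 were higher and 3 lower at an unadjusted p under 0.05. Kcnab1, a Kv channel beta subunit, was at 241.7 ± 77.6 and 448.0 ± 171.5 CPM. Kcnn2, a calcium-activated channel, was at 700.9 ± 101.4 and 487.5 ± 113.4 CPM. Of 16 genes of the list of other ion channels, 1 was higher and 2 lower at that level. Among 6 neuromodulator receptors tested, Htr1f, a serotonin receptor, was at 267.1 ± 45.4 and 139.7 ± 97.0 CPM.

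Adhesion and guidance genes were the longest list, with 49 tested, 26 higher and 23 lower in Het, and 6 higher and 1 lower at an unadjusted p under 0.05, beside 80 higher (3.83%) and 61 lower (2.92%) of all 2087 genes. The netrin receptor gene Dcc was at 205.9 ± 136.1 CPM in the WT group and 527.6 ± 265.2 in the Het group (log2 fold change 1.36, adjusted p = 0.581). With the replicate number of the labels as a block, Dcc was the 1 gene called. The teneurin gene Tenm3 and the adhesion gene Ncam1 stood at 0.69 and 0.63, and the semaphorin gene Sema5a at −0.50. Of 5 genes of immature neurons 4 were higher, none of them at an unadjusted p under 0.05. A list of 25 genes was taken from the study, whose data include these animals, so their direction is not independent evidence. Of them 14 were tested, 6 higher and 8 lower, with 0 called. Rims1, a scaffold of the presynaptic release site, had the smallest p there, at −0.47, and Ubash3b followed at 0.59. Genes of nitric oxide signalling (4 tested), GABA synthesis and transport (3), gap junctions (1), neuropeptides (1), immediate early genes (1) and the Dlx lineage (1) had no call, and no peptide receptor gene passed the filter. Nxph1, the neuropeptide-list gene tested, had a log2 fold change of −0.35 and an adjusted p of 0.683.

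The genotype effect differed between Lamp5 members and Vip nuclei for 1 of 2747 genes (0.0364% called), which was Slc44a5. The difference of the log2 fold changes was 1.39 (SE 0.27, edgeR adjusted p = 0.0322) in a fit with the animal as a block. In Vip nuclei alone Slc44a5 had a log2 fold change of −0.28 (adjusted p = 0.940), and 0 of 2895 genes were called there (0% called, 135 at an unadjusted p under 0.05). The call was lost in 8 of 11 fits that left out 1 animal, with adjusted p-values up to 0.146, and with DESeq2 it was 0.102. In excitatory nuclei its log2 fold change was 0.03. Slc44a5 was at 806.9 to 2108 CPM in Vip nuclei and 62.0 to 390.7 CPM in members. The Vip-class marker sum of members had medians of 2.37 CPM in WT and 20.4 CPM in Het (exact permutation p = 0.0996). Its ranges overlapped, at 0 to 16.0 and 0 to 46.6 CPM. Within members, Slc44a5 was at 86.0 CPM with an Ndnf UMI and 290.0 CPM without, and was higher with Ndnf in only 1 animal. The part of these measures in the Slc44a5 call was not tested. Het against WT gave 32 calls of 12845 genes in excitatory nuclei (0.249% called), and 0 of 12342 in the other GABAergic nuclei (0% called, 544 at an unadjusted p under 0.05 in edgeR).

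In members, sex and genotype together gave the other calls. Of 2779 genes, 5 (0.18% called) had a genotype effect that differed between females and males: Gm26871, Prkg1, Cntnap5a, Arhgap6 and Dock10. Their differences of log2 fold changes were 2.27 (SE 0.39), 2.23 (0.39), 2.40 (0.46), 2.34 (0.48) and 1.85 (0.40), and their edgeR adjusted p-values ran from 0.00450 to 0.0339. DESeq2 also called 5, of which Gm26871, Prkg1 and Cntnap5a were shared. Of 11 fits that left out 1 animal, the call was lost in 7 for Dock10, 5 for Arhgap6, 3 for Cntnap5a, 1 for Prkg1 and 0 for Gm26871. Without high Scrublet scores only Gm26871, Arhgap6 and Dock10 were called.

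Gm26871, a noncoding transcript on chromosome 3 (118430324 to 118530022, plus strand) that overlaps Mir137, was at 600.6 and 541.5 CPM in the fitted WT males and 303.2, 191.5 and 308.0 CPM in Het males. In females it was at 360.5, 309.8 and 568.1 CPM in WT and 785.8, 1322 and 840.3 CPM in Het animals. Among fitted animals Het females were the highest and Het males the lowest, with no overlap between genotypes in either sex. The unfitted WT male 1 was at 806.5 CPM, above 1 of the 3 Het females. Prkg1, a cyclic GMP dependent protein kinase on chromosome 19 (30564489 to 31765033, minus strand), was at 512.4 to 798.6 CPM in Het females, 238.6 to 370.2 in WT females, 176.5 to 344.2 in Het males and 493.003 and 530.8 in the fitted WT males, with WT male 1 at 671.9. Cntnap5a on chromosome 1 was at 325.6 to 538.2 CPM in Het females, 96.7 to 185.8 in WT females, 93.8 to 153.5 in Het males and 183.0 and 268.4 in the fitted WT males. WT male 1 was at 585.9 CPM, above every Het female. Arhgap6, a regulator of small GTPases on chromosome X (168795099 to 169304435, plus strand), was at 51.3 to 81.6 CPM in Het males, 163.0 and 173.5 in the fitted WT males (WT male 1 at 108.6), 143.9 to 160.0 in WT females and 208.4 to 418.9 in Het females. Dock10, an activator of small GTPases on chromosome 1, was at 597.7 to 772.4 CPM in Het females and 114.3 to 334.6 CPM in the other animals, WT male 1 included.

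Other measures moved with these 5 genes. Meis2 was at 320.5, 395.1 and 405.8 CPM in members of Het females and 0, 0 and 94.1 CPM in those of Het males, with 99.6 to 200.03 CPM in WT females, 138.5 and 274.6 CPM in the fitted WT males and 744.5 CPM in the unfitted WT male 1. Its own difference was 3.63 on the log2 scale, not called by edgeR (adjusted p = 0.248) but called by DESeq2 (adjusted p = 0.00442). The 10 striatal markers outside the rule, of which Meis2 is 1, summed to 674.2 to 730.5 CPM in Het females and 135.8 to 239.6 in Het males. The sum was 254.5 to 400.7 CPM in WT females, 226.4 and 420.4 in the fitted WT males and 1386 in the unfitted WT male 1. Cntnap5a and Prkg1 were also lower in members with an Npy UMI than in those without, being higher with Npy in 0 and 1 of 12 animals. When the 39 members with a Meis2 UMI were left out, an alternative added after seeing the data, 10 animals could be fitted and 0 of 2109 genes were called, with 92 at an unadjusted p under 0.05 in edgeR. Without them the differences were 0.99 for Gm26871, 0.61 for Prkg1, 2.01 for Cntnap5a, 1.76 for Arhgap6 and 1.06 for Dock10.

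Under the study's limits on nuclei or with the minimum lowered to 1 Lamp5 UMI, none of the 5 genes was called. In the nuclei with 1 Lamp5 UMI, the differences for these 5 genes ran from −0.90 to 0.22 and 0 of 3894 genes were called (0% called, 153 at an unadjusted p under 0.05 in edgeR). Sex by genotype fits of Vip nuclei and of excitatory nuclei called 0 of 3650 and 0 of 13912 genes (186 and 667 at an unadjusted p under 0.05 in edgeR). The genotype effect within each sex was read from the same fit of all fitted animals of both sexes. Within females, 19 of 2779 genes (0.684% called) passed the test in members, 18 higher and 1 lower in Het, with 253 at an unadjusted p under 0.05. Within males 0 passed (0% called), with 125 at an unadjusted p under 0.05, where the comparison rests on 2 WT and 3 Het animals. The part that the makeup of the 12 to 35 member nuclei per fitted animal plays in these calls was not tested. The fit without Meis2 cannot decide it, since it removed 4 to 7 nuclei per Het female and 0 to 4 per Het male.

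**Figure D5:**
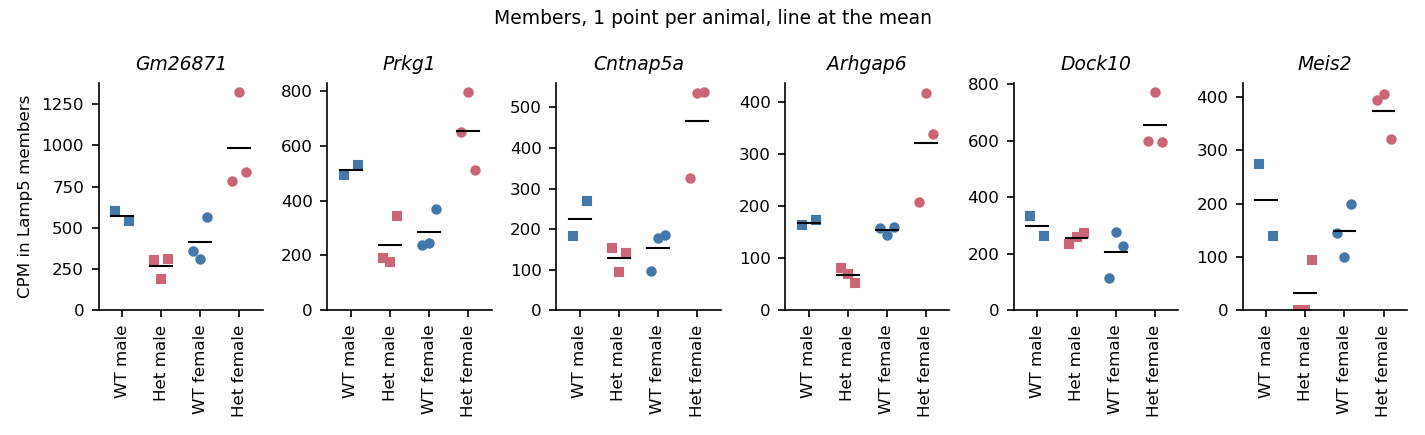
CPM in Lamp5 members of the 11 fitted animals for the 5 genes called in the sex by genotype test and for Meis2, grouped by sex and genotype, with 1 point per animal and a line at the mean. The mean of Het females is highest for all 6 genes, and Het males are below WT males for Gm26871, Prkg1, Cntnap5a, Arhgap6 and Meis2.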

How the data were processed

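Nuclei from the dissected, flash-frozen cortices of 12 P21 animals were fixed and sequenced together with the Scale Biosciences kit. Mapping to mm10, UMI counting and the calling of nuclei (CellFinder) were run by the authors in ScaleRna, and their notes also name Seurat 4.3.0 and DESeq2 1.38.3. The deposited values are expected counts per gene and barcode, of which 92.6% were whole; the rest are UMIs divided among genes. How intronic, antisense and overlapping reads were assigned is not given in the sources used here.

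Members, Vip nuclei (at least 2 Vip UMIs), excitatory nuclei and nuclei outside the Lamp5 threshold were cut from the raw UMIs with Python 3.11.15. The rule, the gene lists and the tests were chosen with earlier results of these data known. Counts were summed per animal and class and rounded to whole numbers. Animals with at least 10 members entered edgeR 4.0.16 under R 4.3.3 (TMM, filterByExpr, robust quasi-likelihood fit, genotype only, as in the study's design), with an adjusted p under 0.05 and a log2 fold change beyond 0.2 as the call. The 8 rule genes, the TDTOMATO transgene and rows without a gene name were left out of the tests. DESeq2 1.42.0 was an alternative. Sex by genotype and class by genotype (animal as a block) were interaction terms. Shares were compared over animals by exact permutation of 924 relabellings. The scripts were tested on simulated counts. Doublets were not removed from the members, and the highest 5% of Scrublet scores (scanpy 1.11.5) were left out as an alternative.

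Genes named were, per direction, those called or else the 5 with the smallest p; the Lamp5 markers, rule genes, Myt1l family and Lhx6; of each list the called members or up to 4 with the smallest p; for profiles, up to 10 genes per direction with the largest mean log2 ratio among genes at 50 CPM or more in the same direction in 12 animals; and genes called in interactions. Others (Meis2, Kit and Prkg1 in the splits, and channel and receptor genes in the profiles) were chosen after their values were seen. Some genes that the rule takes are not reported here. Coordinates are those of GENCODE vM21 on mm10, matched by identifier without version for 55154 of 55336 rows. A planned comparison with Sst nuclei was not run because that rule found 6 nuclei in all. Alternatives were other size factors, no filter, sex as a covariate, a replicate block, the study's limits on nuclei, 3 Lamp5 UMIs, thinning to 1500 UMIs and each animal left out; 3 more were added after seeing the data.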

Additional observations from a re-analysis of the deposited data

Results flagged for a closer look

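Within the WT group, 5 values lay far from the others by the gap to their nearest neighbour relative to the group's range. The log2 ratio of Lamp5 to Vip nuclei was −1.72 in WT male 2. For genes, only the fitted WT animals were compared. Among them WT female 3 was high for Ryr3 at 186.7 CPM and low for Pdzrn3 at 96.0 CPM. The unfitted WT male 1 lay further out for both, at 268.8 and 82.7 CPM. WT female 1 was high for Npy at 105.5 CPM and for Hapln1 at 175.8 CPM, with the unfitted WT male 1 at 41.4 and 62.0 CPM. In the Het group, Het male 1 was high for Fam163a, at 58.3 CPM. These were 6 values in 56 groups checked, and chance alone gives about 1 in 20 groups.

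The genotype effect differed between the sexes in members for Gm26871 by 2.27, Prkg1 by 2.23, Cntnap5a by 2.40, Arhgap6 by 2.34 and Dock10 by 1.85 on the log2 scale, by the interaction term. Meis2 levels moved with these genes. Without members with a Meis2 UMI, in a fit of 10 animals, none was called, and the differences were 0.99, 0.61, 2.01, 1.76 and 1.06 in the same order. The effect for Slc44a5 differed between Lamp5 and Vip nuclei by 1.39, also by an interaction term.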

How the results depend on the processing

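The sum over few nuclei limits every value here: 12 to 35 members per fitted animal, median standard error 0.24 on the log2 scale between genotypes and 0.54 for the sex interaction. For Het against WT in members, the count of DEGs was 0 with DESeq2, other size factors, the study's limits on nuclei, without high Scrublet scores, with WT male 1, with 1 Lamp5 UMI and without members holding a Meis2 UMI. It was 11 with no filter on low counts, 1 with sex as a covariate (Ryr3), and 0 to 2 when leaving out 1 animal. Calls came without WT female 3 (Pdzrn3 and Ryr3) and without Het female 2 (Slc44a5). The sex by genotype count of 5 became 23 with no filter, 1 with 1 Lamp5 UMI, 1 under the study's limits, 3 without high Scrublet scores, 6 with WT male 1, 0 without members holding a Meis2 UMI, and 1 to 7 when leaving out 1 animal, with 1 without WT male 3 and 2 without Het male 2 or WT female 1. With 1 Lamp5 UMI the call was Kctd8 and under the study's limits Ralyl, neither among the 5, whose differences were 0.12 to 0.84 with 1 Lamp5 UMI. Under the limits Gm26871 was at 1.61, Prkg1 at 0.33 and Dock10 at 1.80. For Lamp5 against Vip, the count of 1 became 0 with DESeq2, under the study's limits and without high Scrublet scores, 7 with no filter, and 0 to 3 when leaving out 1 animal. The cause of these changes was not tested.

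The Lamp5 share difference turned to 0.0162 points with 3 Lamp5 UMIs and 0.00270 points after thinning, shrank to −0.0175 under the study's limits (exact permutation p = 0.797), and ran from −0.103 to −0.0512 without 1 animal. The Lamp5 to Vip log2 difference turned to 0.0202 with 3 Lamp5 UMIs, shrank to −0.103 under the study's limits (exact permutation p = 0.764), and ran from −0.651 to −0.384 without 1 animal. The Lhx6 share difference ran from 3.68 to 7.68 points without 1 animal.

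Replicate numbers in the labels were also used as a block. The deviations of same-numbered WT and Het animals of a sex correlated at −0.069 to 0.081 over 5 pairs. Sums over so few nuclei hold much counting error, so these values cannot show whether the numbers paired the animals. With the replicate block 1 gene was called (Dcc), and the Lamp5 share difference stayed at −0.0727 points with an exact permutation p of 0.0938.

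Not run were the fits with 3 Lamp5 UMIs (too few animals held 10 such nuclei), the Lamp5 to Vip ratio after thinning and the comparison with Sst nuclei. Ryr3, Epb41l4b, Pdzrn3, Cntnap5a and Arhgap6 did not pass the filter under the study's limits, nor did Pdzrn3 without high Scrublet scores or without members holding a Meis2 UMI.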
